A study of Sus scrofa with 8 samples.

Results

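The myosin chains of fast and slow muscle fibres were followed in the skeletal muscle of pigs fed a high energy diet, compared with pigs fed a low energy diet. Spots were chosen by name: those to which the platform annotation gives exactly 1 gene symbol, where that symbol is one of 10 myosin genes. The choice gave 42 of 9984 spots, for 8 genes. The slow chains were MYH7 with 12 spots, MYL3 with 14, MYL2 with 4 and MYL6B with 2. The fast chains were MYH2 with 4 spots and MYH1, MYL1 and MYL11 with 2 each. MYL11 is the current symbol of the gene long called MYLPF, and was counted as that gene. The fast heavy chain MYH4 and the perinatal heavy chain MYH8 had no spot under their symbol and were not analysed here. All 8 genes were measured in every couple of samples and entered the test.

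Each of the 8 arrays held 1 high energy and 1 low energy muscle sample in 2 colours. The labels form 4 couples, and each couple was run on 2 arrays with opposite dyes. Couple 1 set high energy sample 40 against low energy sample 49, couple 2 set 41 against 61, couple 3 set 40 again against 142, and couple 4 set a sample called ae against one called be. The labels give neither the muscle nor the age or breed of the pigs. They also do not give the composition or length of the diets, or whether a sample is 1 animal or a pool. The p-values therefore rest on how far these 4 couples differ, a spread that can be technical in part. That spread is not the gene's own alone, since limma draws it toward the spread of all features.

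A sarcomeric myosin is built of heavy chains, which carry the motor, and of essential and regulatory light chains bound to the neck of each. Slow oxidative fibres use the heavy chain MYH7 with the regulatory chain MYL2 and the essential chain MYL3, the same set that works in the ventricle of the heart. Fast fibres use the heavy chains MYH2, MYH1 and MYH4, known as types IIa, IIx and IIb, with the regulatory chain MYL11 and the essential chain MYL1. MYL6B is an essential light chain of slow muscle that is also made in other tissues. In pigs the heavy chain set of a muscle is known as a mark of its fibre composition, and IIb is an abundant type in the pale muscles of fast growing breeds.

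The deposited value is a log2 ratio of the channels of an array, with the direction not stated. Low energy is called the reference by the submitters, and the labels list the high energy sample second, in channel 2, so a value above 0 is read here as higher in high energy muscle. That reading is likely but not settled. If the ratio were instead dye 5 over dye 3, the diet difference would be the turned value, which is given beside each ratio. The turned value is the difference between a couple's arrays (dye 5 minus dye 3) divided by 2. If the ratio were dye 3 over dye 5, the diet difference would be the turned value with its sign reversed. Ratios are fitted means ± SE over 4 couples from limma. The SE holds the spread pooled over features, so it can exceed what a gene's own couples show. For MYH7 the SD of the couples was 0.044 and the fitted SE 0.081. A ratio shows no level, so no chain is said to be more or less abundant than another. Fewer slow or fast fibres and less RNA per fibre cannot be told apart in whole muscle.

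Values were present for 77.6% to 94.4% of spots per array, and the SD of an array's log2 ratios was 0.341 to 0.724. The myosin spots were better filled than the rest: 35 of 42, or 83.3%, had a value on all 8 arrays, against 54.3% of all spots. Spots of 9 skeletal muscle markers such as ACTA1, CKM and TTN were also well filled, at 57 of 66 on all arrays. Brightness could be bounded from the values, since most were the logarithm of 1 whole number over another. The larger of these numbers, called the recovered signal, had a median of 1569.5 for the myosin spots and 446 for all spots.

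No myosin chain passed the test for a diet difference. Of the 8 genes 0 had a Benjamini-Hochberg adjusted p under 0.05 in limma, where 0 of 5025 features passed, a share of 0%, and each gene's adjusted p was 0.996. MYL1 alone had an unadjusted p under 0.05 in limma, against 3.78% of all features and 61 of the 2556 genes among them. Of the 8 fitted ratios 5 were below 0 and 3 above it, with a median of -0.018, and 53.6% of the 5025 features were below 0, with a median of -0.012. The median size of a ratio was 0.10 for the myosin chains, 0.090 for all features and 0.078 for the 2556 genes.

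**Figure D1:**
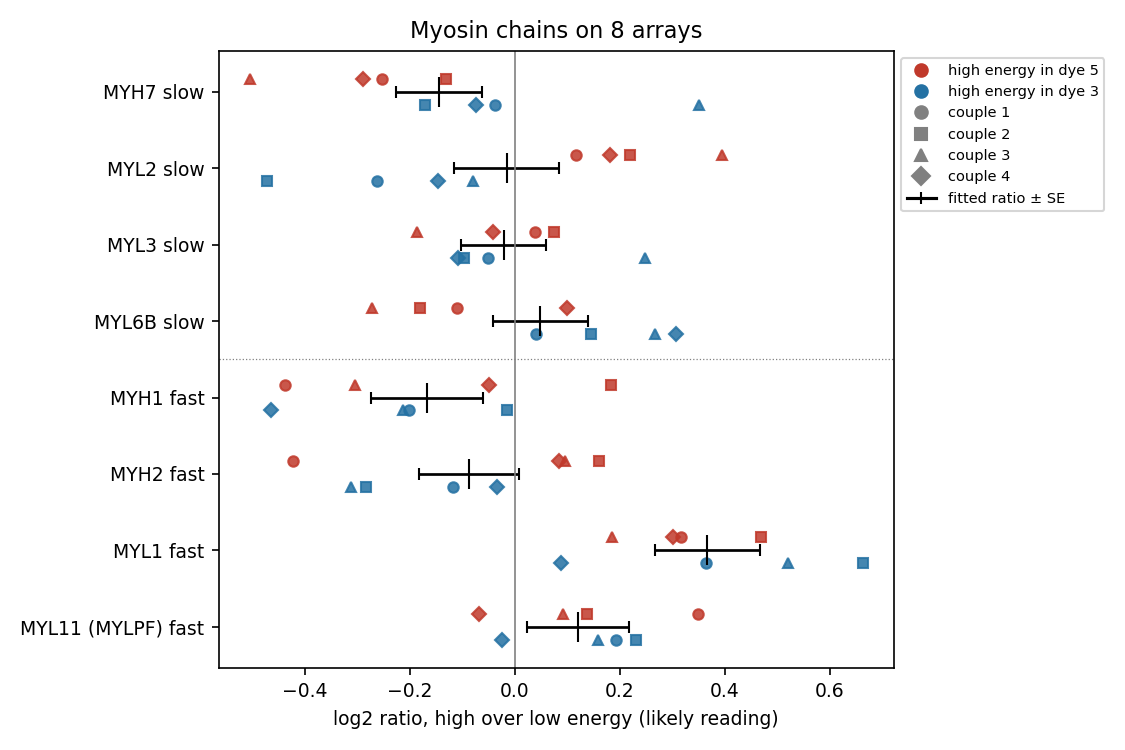
Log2 ratio of 8 myosin genes (rows, slow above fast) on each of 8 arrays. Colour gives the dye of the high energy sample, the marker shape gives the couple, and the black bar is the fitted ratio with its SE. MYL1 lies above 0 on all 8 arrays, MYL2 lies above 0 with high energy in dye 5 and below 0 with it in dye 3, and 7 of 8 arrays are below 0 for MYH7 and for MYH1.

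The fast essential light chain MYL1 had the largest ratio of the set. With high energy in dye 5 it had log2 ratios of 0.32, 0.47, 0.19 and 0.30 in couples 1 to 4, and with high energy in dye 3 it had 0.37, 0.66, 0.52 and 0.088. All 8 values were above 0, which held for 0.797% of the features measured on every array, and so were all 4 couple means, which held for 7.47%. The fitted ratio was 0.37 ± 0.10 (turned -0.036), or 1.29-fold, with a 95% interval of 0.12 to 0.62, an unadjusted p of 0.0122 and the adjusted p of 0.996 from limma. Its p was the 10th smallest of 2556 genes. MYL1 rested on 2 neighbouring spots that did not match on every array. In couple 2 with high energy in dye 3, spot 160 had 1.51 and spot 159 had -0.19, and without that couple the ratio was 0.28.

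The fast regulatory light chain MYL11 also lay mostly above 0. It had 0.35, 0.14, 0.092 and -0.068 with high energy in dye 5, and 0.19, 0.23, 0.16 and -0.025 with high energy in dye 3, in couples 1 to 4. Couples 1 to 3 were above 0 on both of their arrays and couple 4 was below 0 on both. The fitted ratio was 0.12 ± 0.098 (turned -0.012), with a 95% interval of -0.12 to 0.37 that includes 0. Without couple 4 it was 0.19. Its neighbouring spots were the closest of the set, with a median gap of 0.041 on an array.

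The fast heavy chains lay on the other side of 0 from the fast light chains. MYH1, the IIx chain, had -0.44, 0.18, -0.30 and -0.048 with high energy in dye 5, and -0.20, -0.015, -0.21 and -0.46 with high energy in dye 3, in couples 1 to 4. The 1 array above 0 was that of couple 2, and the fitted ratio was -0.17 ± 0.11 (turned 0.060), with a 95% interval of -0.43 to 0.099. Without couple 2 it was -0.27. MYH2, the IIa chain, had -0.42, 0.16, 0.096 and 0.085 with high energy in dye 5, and -0.12, -0.28, -0.31 and -0.034 with high energy in dye 3. Its arrays therefore split by dye in couples 2 to 4, and the fitted ratio was -0.087 ± 0.096 (turned 0.095), with a 95% interval of -0.33 to 0.15. Without couple 1 it was -0.048, and without couple 4 it was -0.13. In the pig RefSeq table MYH4, MYH1 and MYH2 follow each other in the genome. These heavy chains are close copies, the probes are of human genes, and how far a spot named for one of them also binds the others was not tested.

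The slow heavy chain MYH7, the motor of slow fibres and of the ventricle, was below 0 in all 4 couples, which held for 9.12% of features measured in all of them. Its couple means were -0.14, -0.15, -0.077 and -0.18, and the fitted ratio was -0.14 ± 0.081 (turned -0.13), with a 95% interval of -0.35 to 0.059 and an unadjusted p of 0.131 in limma. The couple means lay closer together than the arrays did. With high energy in dye 5 the values were -0.25, -0.13, -0.50 and -0.29, and with high energy in dye 3 they were -0.037, -0.17, 0.35 and -0.074. Couple 3 thus had its 2 arrays on opposite sides of 0, and the 4 arrays with high energy in dye 3 averaged 0.017 ± 0.23 (SD). The side of couple 3 rested on the pair of neighbouring spots 4575 and 4576, which had -1.13 there. The other pairs of MYH7 spots had 0.57, 0.13, 0.11, 0.0025 and -0.21 in that couple.

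The slow regulatory light chain MYL2 followed the dye as a mean of its spots. With high energy in dye 5 it had 0.12, 0.22, 0.40 and 0.18 in couples 1 to 4, all above 0, and with high energy in dye 3 it had -0.26, -0.47, -0.079 and -0.15, all below 0. Such a split of the arrays by dye was found for 0.687% of the 3640 features on all arrays. The turned value, the size of the dye effect if the ratios run high over low energy, was 0.24 ± 0.086, with an unadjusted p of 0.0356 and an adjusted p of 0.998 in limma. No feature passed for the dye effect, and 2.65% had an unadjusted p under 0.05. The fitted diet ratio of MYL2 was -0.015 ± 0.10, with couple means of -0.072, -0.13, 0.16 and 0.017. Its 2 pairs of neighbouring spots did not both split by dye. Averaged, spots 7 and 8 did so in couples 2 to 4, and they had no value in couple 1 with high energy in dye 5. In couple 4 spot 8 was below 0 on both arrays, at -0.23 with high energy in dye 5 and -0.36 with it in dye 3. Spot 7 had 0.29 there with high energy in dye 5 and no value with it in dye 3. With high energy in dye 5, spots 4857 and 4858 had 0.12, -0.13, 0.67 and 0.34 in couples 1 to 4. With it in dye 3 they had 0.010, -0.27, 0.0020 and -0.039. In couple 1 these spots were thus above 0 on both arrays. The dye 3 mean of MYL2 in that couple also held spot 7, at -1.27, and spot 8, at 0.20. The split of MYL2 by dye therefore did not compare the same spots in couples 1 and 4. MYL2 was also the dimmest of the 8 genes, with a median recovered signal of 419.

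**Figure D2:**
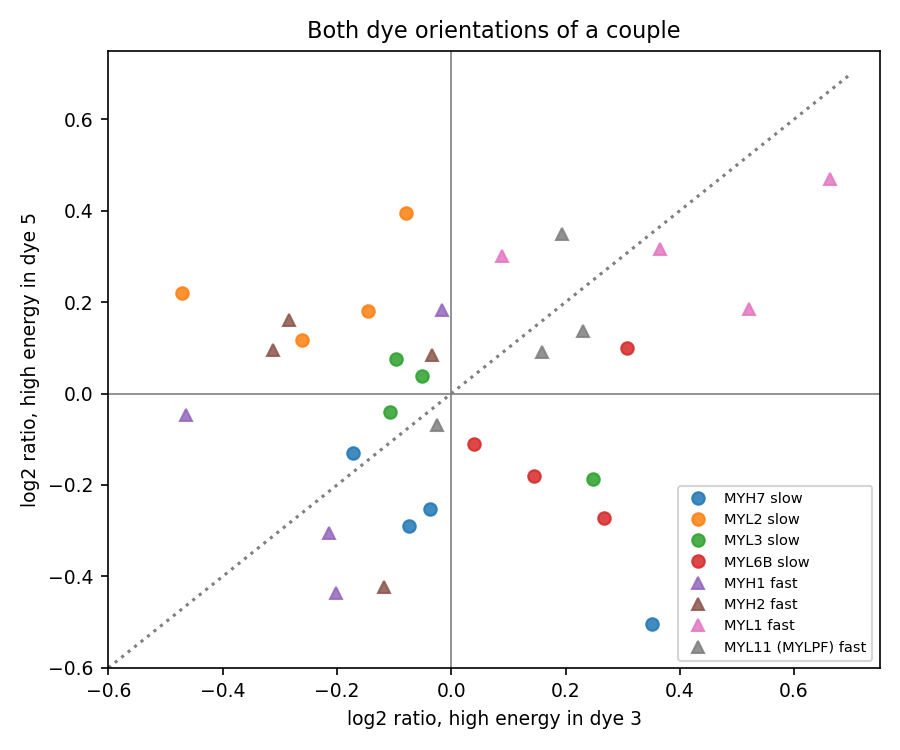
Log2 ratio of each myosin gene in each couple with high energy in dye 5 (vertical) against the same couple with high energy in dye 3 (horizontal). Circles are slow and triangles fast chains, and points on the dotted line have the same ratio in both orientations. All 4 points of MYL2 lie at upper left, on opposite sides of 0 in the 2 orientations, and all 4 points of MYL1 lie at upper right.

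The slow essential light chains MYL3 and MYL6B lay near 0. MYL3 had 0.039, 0.075, -0.19 and -0.041 with high energy in dye 5, and -0.050, -0.097, 0.25 and -0.11 with high energy in dye 3. Its largest values of either sign were both in couple 3, whose arrays were opposed as they were for MYH7. There, neighbouring spots 109 and 110 averaged -1.03 with high energy in dye 5 and 1.35 with it in dye 3. The spots did not match with high energy in dye 5, at -2.02 and -0.052, and had 1.65 and 1.06 with it in dye 3. The other pairs of MYL3 spots averaged -0.35 to 0.13 and -0.33 to 0.37 on these arrays. The fitted ratio of MYL3 was -0.021 ± 0.081 (turned 0.0013), with a 95% interval of -0.22 to 0.18, which leaves room for a small difference in either direction. MYL6B had -0.11, -0.18, -0.27 and 0.10 with high energy in dye 5, and 0.040, 0.14, 0.27 and 0.31 with high energy in dye 3. Couples 1 to 3 had their arrays on opposite sides of 0, and couple 4 had both above it. The fitted ratio was 0.049 ± 0.090 (turned -0.15), and without couple 4 it was -0.018.

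Slow chains were next set against fast chains as the mean log2 ratio of the 4 slow genes minus that of the 4 fast genes. This contrast was fixed by the choice of genes and is a description with no test. Slow chains averaged -0.030 ± 0.049 and fast chains 0.052 ± 0.097 (SD of 4 couples), a difference of -0.082 ± 0.13 (turned -0.039). The difference was -0.070 in couple 1, -0.27 in couple 2, -0.00011 in couple 3 and 0.012 in couple 4. It was smaller than its SD, and without couple 2 it was -0.019.

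Light and heavy chains gave different values in this contrast. Slow light chains averaged 0.0055 ± 0.058 and fast light chains 0.25 ± 0.13, a slow minus fast difference of -0.24 ± 0.18 (SD of 4 couples; turned 0.048). It was below 0 on all 8 arrays, at -0.34, -0.43, -0.18 and -0.025 in couples 1 to 4, with couple 4 close to 0. Without MYL1 the difference was -0.13, and without MYL11 it was -0.36. For the heavy chains the slow gene MYH7 averaged -0.14 ± 0.044 and the fast genes MYH1 and MYH2 -0.15 ± 0.13, a difference of 0.0071 ± 0.15 (turned -0.22). The heavy chain difference was 0.15, -0.16, 0.11 and -0.066 in couples 1 to 4. It was above 0 on 4 arrays and below 0 on the other 4. The difference between light and heavy chains was not tested.

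**Figure D3:**
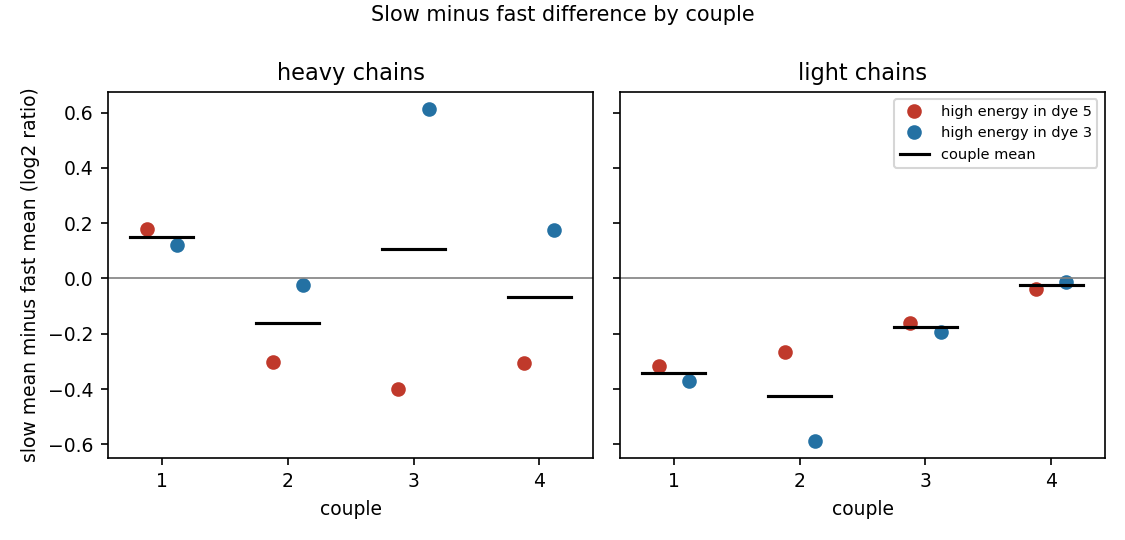
Slow minus fast difference of the mean log2 ratio in each couple, for heavy chains at left (MYH7 minus the mean of MYH1 and MYH2) and light chains at right (mean of MYL2, MYL3 and MYL6B minus mean of MYL1 and MYL11). Points are arrays, coloured by the dye of the high energy sample, and lines are couple means. All 8 light chain points lie below 0, and the heavy chain points scatter from -0.40 to 0.61.

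Several chains were spotted many times over, in pairs of neighbouring spots with the same symbol. The annotation gives the same human accession for all pairs of a gene and no fragment, so what part of the transcript each pair holds is not known here. Neighbouring myosin spots differed by a median of 0.14 on the same array, against 0.27 for all spots with 1 symbol. Different pairs of the same myosin gene differed by 0.23 and the swapped arrays of a couple by 0.22.

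Pairs of MYH7 did not all give the same ratio. Of its 6 pairs 5 had a mean below 0, from -0.53 to 0.032 with a median of -0.057. The lowest pair, spots 4575 and 4576, was below 0 in all 4 couples, at -0.47, -0.26, -1.13 and -0.25, and in 15 of its 16 values. Spot 4575 was below 0 on all 8 arrays, as were 1.26% of single spots with 8 values, and had an unadjusted p of 0.0162 in limma with single spots, where 0 of 7563 passed after adjustment, a share of 0%, and 3.35% had an unadjusted p under 0.05. Beside it, only spot 160 of MYL1 among the 38 myosin spots tested had such a p, at 0.0109. The highest pair, spots 21 and 22, was spread widely over couples, at 0.11, -0.14, 0.57 and -0.41. On the arrays of couple 3 spot 21 had -0.53 with high energy in dye 5 and 1.71 with high energy in dye 3.

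For MYL3, 4 of 7 pairs lay above 0 and 3 below, from -0.16 to 0.093. Averaged as a pair, spots 1743 and 1744 were above 0 in all 4 couples, and spots 2475 and 2476 below 0 in all 4. The single spots did not all keep to that side. In couple 3 with high energy in dye 5, spot 2475 had 1.12 and spot 2476 had -1.83. The MYL2 pairs had means of -0.079 (3 couples) and 0.087, and the MYH2 pairs of -0.081 and -0.13. Counted over all single values, 57.9% of 242 slow chain values and 43.8% of 80 fast chain values were below 0, against 49.9% of all values on the arrays. By gene the share was 70.3% for MYH7, 68.8% for MYH1, 62.5% for MYH2, 18.8% for MYL11 and 6.25% for MYL1, and it was between 48.3% and 50.9% for MYL2, MYL3 and MYL6B. These shares depend on the direction of the ratio. Turned, by reversing the values of each couple's dye 3 array, 50.4% of slow and 38.8% of fast chain values were below 0, and 49.9% of all values. By gene the turned share was 57.1% for MYH7, 43.8% for MYH1, 25% for MYH2, 56.3% for MYL11, 43.8% for MYL1, 24.1% for MYL2, 46.2% for MYL3 and 87.5% for MYL6B.

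**Figure D4:**
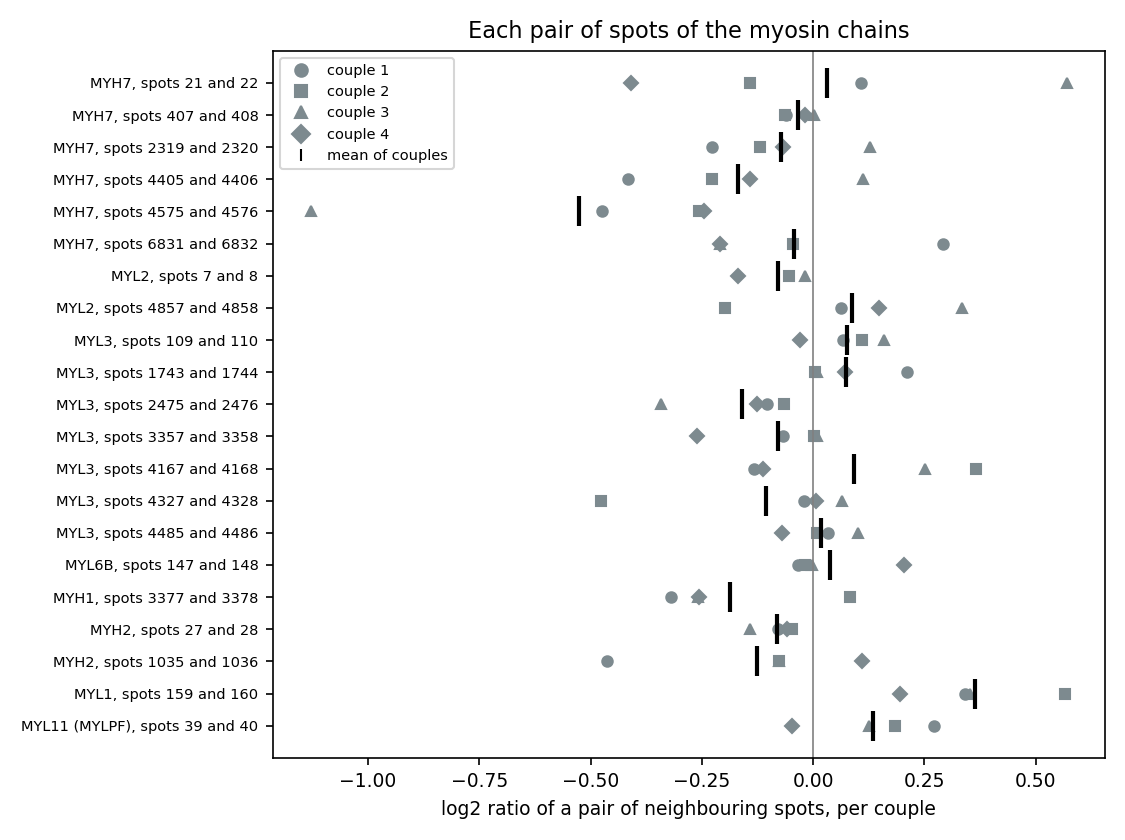
Log2 ratio of each pair of neighbouring spots of a myosin gene in each couple, both dye orientations averaged. Marker shape gives the couple and the black bar the mean. The MYH7 pairs run from -0.53 to 0.032, and the MYL1 pair is above 0 in all 4 couples.

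Other slow fibre genes lay below 0 and most other fast fibre genes above it in the likely direction of the ratio, with none past the test. Turned, both lists lay on both sides of 0. Of 11 other slow fibre genes 9 were tested, and all 9 had a ratio below 0, against 53.6% of all features, with a median of -0.098. TNNC1 (-0.014 ± 0.083, turned -0.073) and CSRP3 (-0.018 ± 0.12, turned 0.041) lay within 1 SE of 0. So did CASQ2 (-0.042 ± 0.092, turned -0.026) and ATP2A2 (-0.078 ± 0.19, turned -0.0071). Turned, 4 of the 9 were below 0, against 52.6% of all features, with a median of 0.0016. MYBPC1, the slow myosin-binding protein C, had -0.31 ± 0.091 (turned 0.024) and myoglobin, MB, had -0.32 ± 0.10 (turned 0.22). Of 12 other fast fibre genes 11 were tested, 8 of them above 0, against 46.4% of all features, with a median of 0.088. Turned, 5 of the 11 were above 0 and 6 below, with a median of -0.0035. PGAM2, the muscle phosphoglycerate mutase, had 0.35 ± 0.089 (turned -0.057), with 8 of 8 arrays above 0, and TPM1, a tropomyosin, had 0.24 ± 0.11 (turned 0.037). No gene of either list passed after adjustment in limma, and 3 of 9 slow genes and 1 of 11 fast genes had an unadjusted p under 0.05, against 3.78% of all features. They were MYBPC1, MB, TNNT1, the slow troponin T, at -0.21 ± 0.080 (turned -0.047; named after its value was seen), and PGAM2. These lists overlap those of an earlier look at the same arrays and are no independent support.

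Partners of the thick filament had no common side. Of 9 tested, 5 were below 0 and 4 above, with a median of -0.049, and turned 2 were below 0 and 7 above, with a median of 0.026. TRIM55, a ubiquitin ligase of the sarcomere, had 0.36 ± 0.16 (turned 0.38). Among 5 other myosins 4 were above 0, with a median of 0.12, and turned 2 were above 0, with a median of -0.040. MYL7, the regulatory light chain of the atrium, had 0.24 ± 0.093 (turned 0.15) and MYL6, a light chain of smooth muscle and other cells, 0.10 ± 0.088 (turned -0.040). Of 9 fibre type regulators 5 were above 0 and 4 below, turned as well, and MEF2C, a muscle transcription factor, had -0.17 ± 0.10 in 3 couples (turned -0.044). Of these 3 lists, 2 genes had an unadjusted p under 0.05, MYBPC1 and MYL7, against 3.78% of all features, and 0 passed after adjustment.

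**Figure D5:**
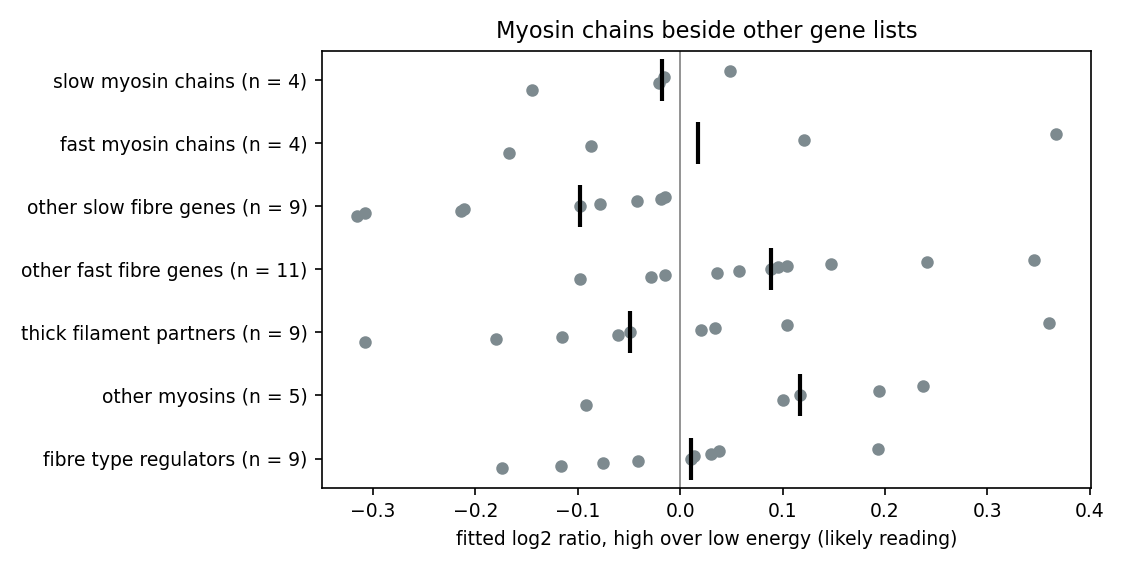
Fitted log2 ratios of single genes (points) by list, with the median of each list as a black bar. All 9 other slow fibre genes lie below 0 and 8 of 11 other fast fibre genes above it (turned, 4 of 9 below 0 and 5 of 11 above), and the myosin chains have medians of -0.018 (slow) and 0.017 (fast).

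Markers of other tissue parts did not pass either. Of general muscle markers 5 of 9 were above 0, with list means by couple from -0.14 to 0.12, and turned 8 of 9 were above 0. CAV3, the muscle caveolin, had 0.70 ± 0.37 (turned -0.20), and 0.15 without couple 4, while CKM, muscle creatine kinase, had 0.083 ± 0.080 (turned 0.016). Smooth muscle markers had 3 of 5 above 0 and list means by couple from -0.080 to 0.20, fibroblast markers 3 of 4 above 0 and means from -0.14 to 0.13, and blood markers 2 of 4 above 0 and means from -0.30 to 0.14. Turned, 1 of 5 smooth muscle markers (median -0.16), 2 of 4 fibroblast markers (median -0.057) and 4 of 4 blood markers (median 0.099) were above 0. TAGLN had 0.11 ± 0.10 (turned -0.16) and 0.065 without couple 1, MYH11 -0.092 ± 0.097 in 3 couples (turned -0.15) and COL1A2 0.23 ± 0.11 (turned -0.31). Only 1 of 5 fat markers was tested, at -0.068 (turned 0.15) with couple values from -0.51 to 0.42. The part of these tissues in the myosin ratios was not tested.

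Over the 8 arrays, the mean of the slow chains was most like ATP6V1D (Pearson's r = 0.95), PAIP1 (0.90) and NRAP (0.90) among 1920 other genes measured on every array. The mean of the fast chains was most like GYG1 (0.93), AIF1 (0.93) and NOL11 (0.92). These are descriptions over 8 arrays that share samples and hold both dye orientations, with no test.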

How the data were processed

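Pig muscle cDNA labelled with Cy3 and Cy5 was hybridised on 8 arrays with 2 colours and read with a ScanArray LITE scanner, per the labels and the series' design text. The suffixes 3 and 5 of the sample labels were taken as the dyes. The deposited values are log2 ratios. That unit was read from the values, since 85.9% to 97.1% of an array's values were the log2 of a ratio whose lesser whole number was under 5000. How background, spot quality and normalization were handled is not stated by the sources used here. Array medians lay between -0.0071 and 0.0115 as deposited.

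Arrays were centred on their medians and spots of 1 symbol averaged. The platform annotation gives 1 symbol for 6610 spots, several for 106 and none for 3268, and its names are human. Spots without 1 symbol were kept singly. The 2 arrays of a couple were averaged, and the 5025 features (2556 genes) with both orientations in at least 3 couples were tested with limma's lmFit and eBayes (limma 3.58.1, R 4.3.3), two-sided, with Benjamini-Hochberg adjustment over all of them and a fixed correlation of 0.5 between couples 1 and 3, which share sample 40. That correlation gives them less weight, so a fitted ratio can differ slightly from the plain mean of the couples. The fit was tested on simulated data. Myosin genes and lists were chosen with earlier results of these arrays known. Named beside the 8 myosin genes are, from each list, the 2 genes with the largest ratio of either sign among those with 1 sign in all measured couples, and the 3 genes most like the slow and the fast mean. TNNT1 and the other slow fibre genes within 1 SE of 0 were named after their values were seen.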

Additional observations from a re-analysis of the deposited data

Results flagged for a closer look

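Over 27 sets of 4 values (each gene and the slow minus fast difference, over couples and over the arrays of each dye orientation), 4 held a value far from the other 3 by Dixon's criterion, where chance gives about 1 in 20. MYL6B had 0.20 in couple 4, with the other couples between -0.035 and -0.0018. MYH1 had 0.084 in couple 2, against values from -0.32 to -0.26 in the others. MYH2 had -0.42 in couple 1 with high energy in dye 5, where the other 3 arrays were above 0. MYL3 had 0.25 in couple 3 with high energy in dye 3, where the other 3 arrays were below 0.

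As a mean of its spots, MYL2 was above 0 on all 4 arrays with high energy in dye 5 and below 0 on all 4 with it in dye 3. In couples 1 and 4 the 2 orientations did not hold the same spots. The mean difference between the orientations divided by 2 was 0.23, and in limma the fitted dye effect did not pass after adjustment (adjusted p = 0.998).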

How the results depend on the processing

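No myosin gene passed in any of 127 fits of a gene under an alternative setting. The smallest adjusted p from limma was 0.190, for MYL1 in the fit of all 8 arrays, which took a couple's arrays as nearly independent. Of these 127 ratios 111 kept their sign and 16 did not. Turned, the ratios were 0.24 for MYL2, 0.0013 for MYL3, -0.15 for MYL6B, 0.060 for MYH1, 0.095 for MYH2, -0.036 for MYL1 and -0.012 for MYL11. With high energy in dye 5 alone, MYL2 had 0.22, MYL6B -0.10 and MYH2 0.0085. MYL2 had 0.065 on spots with a value on all arrays, and MYL3 0.016 where the log2 of the recovered signal had to reach 9, a setting in which MYL2 was measured in too few couples. Leaving out 1 couple gave -0.060 to 0.032 for MYL2, -0.030 to 0.0023 for MYL3 and -0.018 to 0.077 for MYL6B.

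The number of features with an unadjusted p under 0.05 was 190, and 108 with high energy in dye 5 alone, 106 with that signal minimum (1472 features tested), 310 with independent couples and 353 with all 8 arrays and the couple as a replicate block. It was 107 to 284 without 1 couple. None passed after adjustment in any of these fits. Spots tested on their own give no single ratio for a gene and are reported spot by spot.

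The slow minus fast difference of -0.082 was 0.0071 in heavy chains and -0.24 in light chains. Without 1 couple it was -0.11 to -0.019, and by strict match of the symbols, without MYL11, -0.055. The light chain difference, looked at further after its values were seen, was -0.32 to -0.18 without 1 couple and 0.048 turned, and it kept its sign under the other settings tried. The heavy chain difference changed sign readily: -0.22 turned, -0.21 with high energy in dye 5 and 0.22 with it in dye 3, -0.0082 on spots with a value on all arrays, -0.035 without MYH1, and -0.040 to 0.064 without 1 couple. Centring and scaling changed no sign. Leaving out 1 couple changed no sign among the genes picked from the lists, a check added after the values were seen. They had been picked for 1 sign in all measured couples, so no change was possible.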
